A study of Mus musculus with 7 samples.

Results

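The genes of the presynaptic vesicle release machinery were examined in bulk RNA-seq of embryonic mouse retina with and without *Ptbp1*, an RNA-binding protein that regulates splicing. The 55 genes were taken by symbol from a count table of 48440 genes. Each symbol matched 1 row, and all 55 genes were among the 20019 that passed the filter on low counts. They were divided into 4 members tied to ribbon synapses (*Stx3*, *Cplx3*, *Cplx4* and *Slc17a7*) and 51 members of conventional synapses or of both kinds.

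All 7 libraries were made from whole retina at embryonic day 16 (E16), each from a pool of retinas, and all carried the Chx10-Cre transgene. The WT group (n = 1) carried Chx10-Cre with no floxed *Ptbp1* allele named in its label. The Het group (Chx10-Cre;Ptbp1lox/WT, n = 3) and the KO group (Chx10-Cre;Ptbp1lox/lox, n = 3) carried 1 and 2 floxed alleles, in which loxP sites surround the *Ptbp1* promoter and first exon. The transgene directs Cre to retinal progenitors and so to the neurons that descend from them, whereas cells of other origin in the dissected tissue keep *Ptbp1*. No source names which animals went into which pool, so p-values measure the spread between these pools. The single WT library had no replicate and entered no comparison of its own.

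Release of transmitter follows a fixed sequence of steps. Vesicles are filled by transporters, held by synapsins, docked and primed at the active zone by Rab3, RIM and Munc13 proteins, and fused by SNARE proteins under the control of complexins and of calcium-sensing synaptotagmins, after which the membrane is recovered by endocytosis. Photoreceptors and bipolar cells release from ribbons and use syntaxin 3 and complexins 3 and 4, while amacrine and ganglion cells form conventional synapses. Much of the embryonic retina still consists of dividing progenitors, and ribbon synapses mature only after birth.

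Total counts ranged from 120593979 in Het2 to 171117305 in Het1. The 55 genes took 0.428% of the counts in WT, 0.458%, 0.442% and 0.429% in Het1, Het2 and Het3, and 0.496%, 0.491% and 0.454% in KO1, KO2 and KO3. The lowest count of any member in any library was 71, for *Slc17a8*. Values are given as CPM, each count divided by its library total and put on a common scale after correction for library composition. The tissue label was met by its markers, since *Crx* of photoreceptors stood between 149 and 198 CPM in all 7 libraries and *Pou4f2* of ganglion cells between 83.9 and 117 CPM.

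Het1 stood apart from the other libraries in its muscle and pigment epithelium markers. Its 10 skeletal muscle markers summed to 290.8 CPM, against 8.52 to 11.2 CPM elsewhere, and all 10 were highest there. Its 5 pigment epithelium markers summed to 461 CPM, against 16.6 to 50.2 CPM elsewhere, although *Rpe65* was at or under 3 counts in every library. The count of release genes that passed the test is therefore given with and without Het1. Lens markers varied in other libraries too. The 5 summed to 20.6, 51.7 and 73.5 CPM in Het1, Het2 and Het3, and to 2.37, 5.05 and 37.6 CPM in KO1, KO2 and KO3.

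The targeted gene followed the labels. *Ptbp1* stood at 381 CPM in WT, at 210, 219 and 234 CPM in Het1, Het2 and Het3, and at 27.9, 6.04 and 46.9 CPM in KO1, KO2 and KO3. The KO and Het libraries did not overlap, and the log2 fold change was -3.04 with a standard error (SE) of 0.635 (edgeR, adjusted p = 0.0316). *Ptbp2*, the neuronal paralog, stood at 428, 455 and 430 CPM in the Het libraries and at 529, 550 and 538 CPM in the KO libraries, a log2 fold change of 0.30 ± 0.0374 (SE, edgeR, adjusted p = 0.00831).

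To ask whether loss of *Ptbp1* altered the release genes, KO was compared with Het. A gene was called when its edgeR p-value, adjusted over all 20019 genes, was under 0.05 and its change exceeded 20%, a log2 fold change of 0.263 in either direction. By this rule 6 of the 55 members were called, or 10.9%, against 7.22% of all genes tested and 9% of the 13750 genes with a mean of at least 1 CPM. *Rims1*, *Stxbp5*, *Syn2*, *Syt3* and *Ppfia4* rose, 5 of 55 against 4.01% of all genes tested, and *Rab3c* fell, 1 of 55 against 3.21%. In this fit the share of members called was thus near that of genes in general. An unadjusted edgeR p under 0.05 was reached by 26 of 55 members, or 47.3%, against 29.7% of all genes tested. This last share was not computed for genes with a mean of at least 1 CPM.

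The values, like the calls, were mostly upward. Of the 55 members, 46 had a log2 fold change above 0, or 83.6%, against 49% of all genes tested and 47.2% of those with a mean of at least 1 CPM. The median log2 fold change of the members was 0.15, against -0.0047 over all genes tested. In 21 members every KO library lay above every Het library, against 18.6% of all genes tested, and in 6 every KO library lay below, against 17.7%, which makes 27 of 55 without overlap, against 36.3%. Shares without overlap, and those below with a library left out, were not computed for genes with a mean of at least 1 CPM. Since the members share cells and libraries, these counts describe the list and are not independent observations. In bulk retina, more cells of a type and more RNA per cell cannot be told apart.

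**Figure D1:**
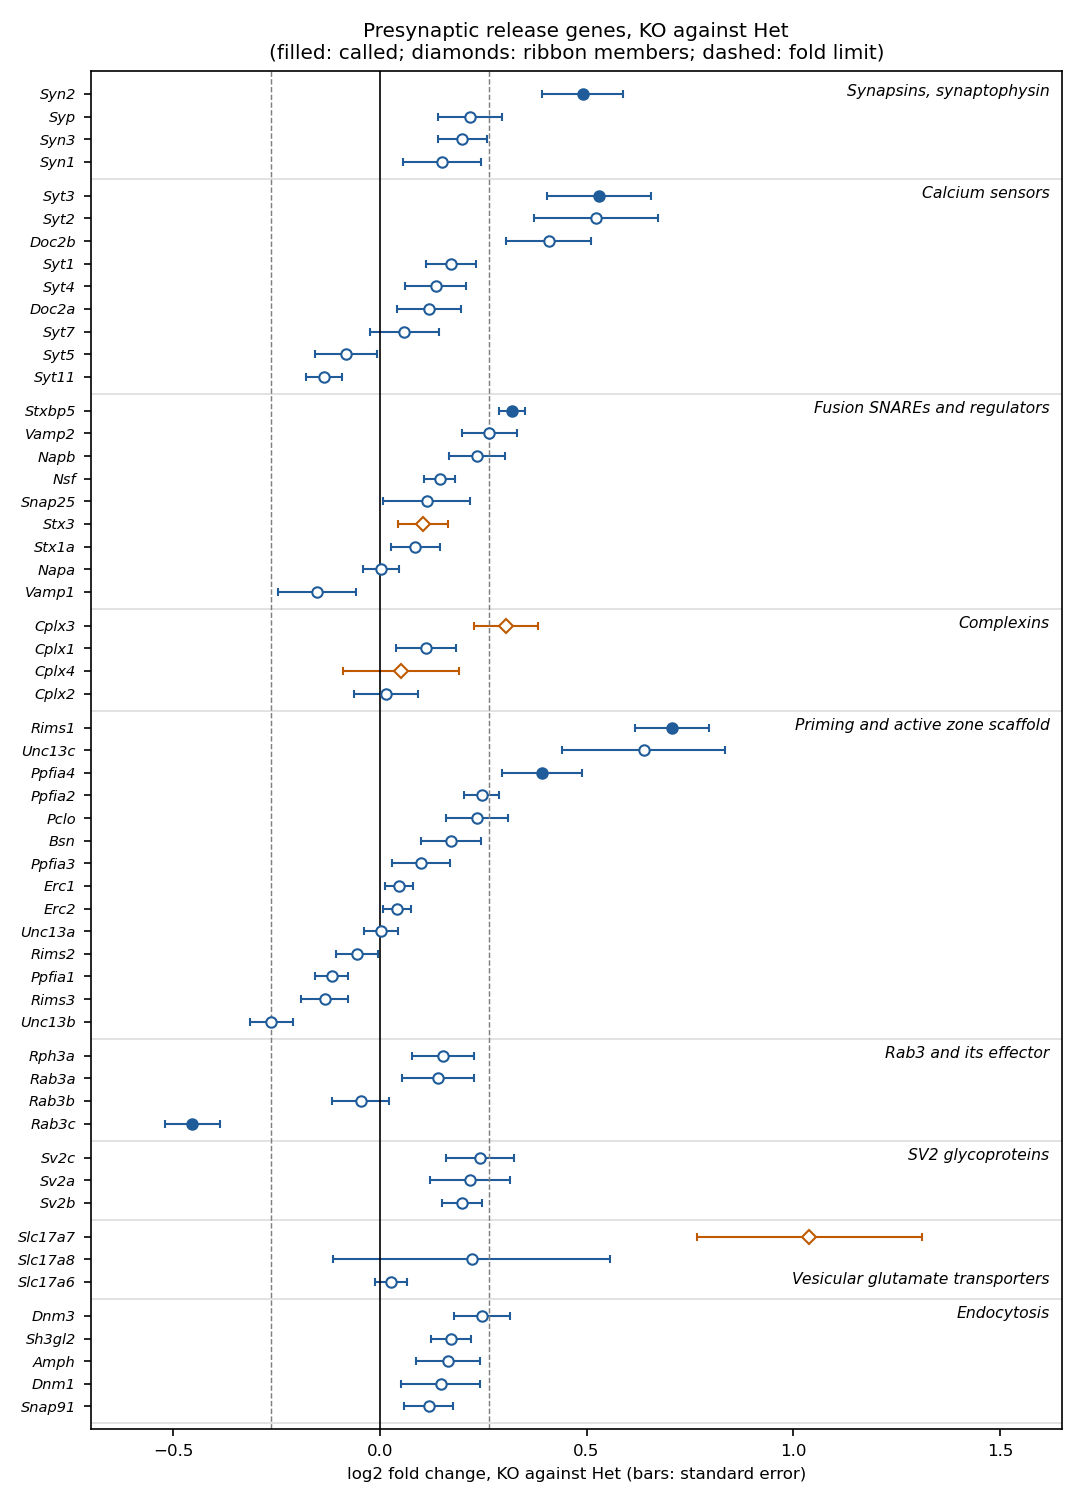
Log2 fold change of each of the 55 release genes, KO against Het (points, with bars for the standard error, 3 libraries per group), grouped by role, with filled points for the 6 called genes, diamonds for the 4 ribbon members and dashed lines at the limit of 0.263. Most points lie to the right of 0, while *Rab3c* at -0.45 and *Unc13b* at -0.26 lie farthest to the left.

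The shift was not the same in the 3 KO libraries. The median log2 ratio of the members to the Het mean was 0.21 in KO1, 0.18 in KO2 and 0.019 in KO3, and KO3 was the lowest KO library for 40 of 55 members. KO1 was the highest of all 7 libraries for 29 members. The calls moved with single libraries, among the members and among all genes. Without Het1, 8 members were called (14.5%, against 6.23% of all genes tested), without Het2 1 (1.82%, against 1.93%) and without Het3 3 (5.45%, against 2.49%). Without KO1 4 were called (7.27%, against 6.12%), without KO2 4 (7.27%, against 3.06%) and without KO3 13 (23.6%, against 8.39%). DESeq2 called 12 of the 55, or 21.8%, against 11.6% of the 17813 genes to which it gave an adjusted p. By adjusted p alone 9 members passed, or 16.4%, against 11.1%, and with the replicate number as a block 10 were called, or 18.2%, against 6.88%.

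Docking and priming genes held the largest changes among the conventional members. *Rims1* encodes RIM1, an active zone scaffold that recruits calcium channels and Munc13, and lies on chr1:22286251-22805994 (minus strand, GRCm38). It stood at 27.9 CPM in WT, at 33.0, 31.0 and 28.7 CPM in Het1, Het2 and Het3, and at 57.0, 48.3 and 45.9 CPM in KO1, KO2 and KO3. Every KO library lay well above every Het library, with WT just below the Het range. The log2 fold change was 0.71 ± 0.0898 (SE, edgeR, adjusted p = 0.00863), and of the fits with a library left out the call was lost only in that without Het2, at an edgeR adjusted p of 0.0511.

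*Ppfia4* encodes liprin-alpha-4, a scaffold of the active zone, on chr1:134296783-134332928 (minus strand, GRCm38), and stood at 14.2 CPM in WT, at 14.7, 13.8 and 13.6 CPM in Het1, Het2 and Het3, and at 18.9, 20.5 and 15.9 CPM in KO1, KO2 and KO3. The groups did not overlap, but KO3 lay close to Het1. Its log2 fold change of 0.39 ± 0.0974 was at the margin of the threshold (edgeR, adjusted p = 0.0498), and the call held in 1 of 6 fits with a library left out.

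Of the 14 priming and scaffold genes, 2 rose and none fell by edgeR, and 10 had a log2 fold change above 0. *Unc13b*, which encodes the priming factor Munc13-2, stood at 81.8, 84.7 and 86.2 CPM in the Het libraries and at 65.2, 74.3 and 71.2 CPM in the KO libraries. The KO libraries were all below the Het libraries, and at -0.26 (edgeR, adjusted p = 0.0267) the log2 fold change sat just inside the limit on size. Its paralog *Unc13c* had a log2 fold change of 0.64 with an SE of 0.198, which did not pass (edgeR, adjusted p = 0.0861), with the Het libraries at 14.2, 11.5 and 11.2 CPM and the KO libraries at 14.9, 25.0 and 17.5 CPM. DESeq2 called both, *Unc13b* at -0.266 (DESeq2, adjusted p = 8.19e-05) and *Unc13c* at 0.634 (DESeq2, adjusted p = 0.00151). *Unc13a*, which encodes Munc13-1, had a log2 fold change of 0.0024. *Rims3* was the most abundant gene of this role per length, at a mean of 18.6 CPM per kilobase of exon (RPKM). It stood at 157, 157 and 154 CPM in the Het libraries and at 146, 151 and 130 CPM in the KO libraries, lower in every KO library and not called (edgeR, adjusted p = 0.177). The large scaffolds *Bsn* (bassoon) and *Pclo* (piccolo) had log2 fold changes of 0.17 and 0.23 and were not called. The other liprin genes *Ppfia1*, *Ppfia2* and *Ppfia3* had log2 fold changes of -0.12, 0.25 and 0.099, the scaffold genes *Erc1* and *Erc2* 0.046 and 0.041, and *Rims2* -0.056. None of these was called, although *Ppfia2* passed on its adjusted p (edgeR, 0.0193) and missed the limit on size.

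Of the 4 genes for Rab3 proteins and rabphilin, 1 fell and 3 were not called. *Rab3c*, a small GTPase of the vesicle surface on chr13:110054187-110280996 (minus strand, GRCm38), stood at 80.5 CPM in WT, at 95.1, 91.8 and 83.6 CPM in Het1, Het2 and Het3, and at 64.3, 71.1 and 62.2 CPM in KO1, KO2 and KO3. All KO libraries lay below all Het libraries and below WT, which itself lay below the Het range. The log2 fold change was -0.45 ± 0.0665 (SE, edgeR, adjusted p = 0.0126), and of the fits with a library left out the call was lost only in that without Het2 (edgeR, adjusted p = 0.0666). *Rab3a*, the main Rab3 of brain synapses, had a log2 fold change of 0.14 and *Rab3b* one of -0.046. *Rph3a*, the Rab3 effector rabphilin, was the most abundant of the role at a mean of 62.8 RPKM, and stood at 294, 277 and 267 CPM in the Het and 329, 327 and 277 CPM in the KO libraries, where KO3 overlapped the Het range.

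Among the 9 genes for SNARE proteins, their regulator and their recycling, 1 rose and 8 were not called. *Stxbp5* encodes tomosyn-1, which binds syntaxin and restrains fusion, on chr10:9755547-9901079 (minus strand, GRCm38). It stood at 35.8 CPM in WT, at 33.5, 32.6 and 31.8 CPM in Het1, Het2 and Het3, and at 40.5, 40.3 and 41.5 CPM in KO1, KO2 and KO3. The KO libraries lay close together above all others, and WT lay between the groups. With a log2 fold change of 0.32 ± 0.0317 (SE, edgeR, adjusted p = 0.00514), this was the only member called in all 6 fits with a library left out. *Vamp2*, the vesicle SNARE synaptobrevin 2, was the most abundant of the role at 46.5 RPKM, and stood at 173, 159 and 162 CPM in the Het and 212, 202 and 179 CPM in the KO libraries. Its groups did not overlap, and its log2 fold change of 0.26 narrowly missed the threshold (edgeR, adjusted p = 0.0510). *Snap25* and *Stx1a*, which encode the plasma membrane SNAREs, had log2 fold changes of 0.11 and 0.086, with overlapping groups. *Nsf* and *Napb*, which act in taking spent SNARE complexes apart, had log2 fold changes of 0.14 and 0.24, *Napa* had one of 0.0023 and the vesicle SNARE gene *Vamp1* one of -0.15, none of them called.

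Of the 9 calcium sensors 1 rose and 8 were not called. *Syt3*, a synaptotagmin with high affinity for calcium, on chr7:44384102-44400187 (plus strand, GRCm38), stood at 4.84, 3.90 and 3.91 CPM in the Het libraries and at 6.78, 5.98 and 5.50 CPM in the KO libraries. The KO libraries were all higher, and WT at 4.37 CPM lay within the Het range. The log2 fold change was 0.53 ± 0.127 (SE, edgeR, adjusted p = 0.0450), and the call held in 2 of 6 fits with a library left out. *Syt1*, the fast sensor of most brain synapses, had a log2 fold change of 0.17 and *Syt2*, its close relative, one of 0.52, neither called (edgeR, adjusted p = 0.114 and 0.0711). *Syt11*, which lacks calcium binding, was the most abundant of the role at 66.7 RPKM, and stood at 354, 370 and 360 CPM in the Het and 343, 331 and 312 CPM in the KO libraries, lower in every KO library and not called (edgeR, adjusted p = 0.0921). The remaining sensors *Syt4*, *Syt5*, *Syt7*, *Doc2a* and *Doc2b* had log2 fold changes of 0.14, -0.082, 0.059, 0.12 and 0.41. Besides *Syt3*, DESeq2 called *Syt2* and *Doc2b* (DESeq2, adjusted p = 0.00777 and 0.0006).

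All 4 genes for synapsins and synaptophysin had log2 fold changes above 0, and 1 rose. *Syn2*, one of the synapsins that tether the reserve pool of vesicles, on chr6:115134902-115282006 (plus strand, GRCm38), stood at 6.38 CPM in WT, at 7.61, 7.01 and 6.97 CPM in Het1, Het2 and Het3, and at 11.0, 10.4 and 8.85 CPM in KO1, KO2 and KO3. The groups did not overlap, and the log2 fold change was 0.49 ± 0.0977 (SE, edgeR, adjusted p = 0.0274), with the call held in 2 of 6 fits with a library left out. *Syn2* shares 90 bases of exon with *Timp4* on the other strand, whose mean was 0.388 CPM. *Syn1* was the most abundant of the role at 24.6 RPKM and stood at 84.0, 75.1 and 76.0 CPM in the Het and 96.4, 89.3 and 75.2 CPM in the KO libraries, where KO3 overlapped the Het range. *Syp*, a vesicle membrane protein in wide use as a synapse marker, had a log2 fold change of 0.22 (edgeR, adjusted p = 0.120), and *Syn3* had one of 0.20 (edgeR, adjusted p = 0.0774).

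None of the 5 endocytosis genes and none of the 3 SV2 glycoprotein genes was called, and all 8 had log2 fold changes above 0. An unadjusted edgeR p under 0.05 was reached by 2 of the 5 and 2 of the 3, and DESeq2 called none of them. *Sv2b* passed on its adjusted p (edgeR, 0.0469) and missed the limit on size, as did *Sv2b*, *Dnm3*, *Sv2c* and *Sh3gl2* by DESeq2, with adjusted p of 0.00742, 0.00775, 0.0307 and 0.0417. Without KO3, edgeR called *Dnm3* and *Sv2c*. The endocytosis genes ranged from 0.12 for *Snap91*, which encodes a clathrin adaptor, to 0.25 for *Dnm3*, which encodes a dynamin, with *Dnm1*, *Amph* and *Sh3gl2* at 0.15, 0.16 and 0.17. *Snap91* was the most abundant of them at 15.2 RPKM and stood at 133, 138 and 131 CPM in the Het and 152, 152 and 133 CPM in the KO libraries, with KO3 inside the Het range. The SV2 genes ranged from 0.20 for *Sv2b* to 0.24 for *Sv2c*. *Sv2a* was the most abundant at 24.4 RPKM, and stood at 116, 99.5 and 104 CPM in the Het and 137, 126 and 108 CPM in the KO libraries, where Het1 and KO3 overlapped.

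The ribbon members were then taken separately. None of the 4 was called by edgeR, all 4 had log2 fold changes above 0, and 2 had an unadjusted edgeR p under 0.05. DESeq2 called 2, *Slc17a7* and *Cplx3*. *Slc17a7* encodes VGLUT1, the transporter that fills the vesicles of photoreceptors and bipolar cells, and lies on chr7:45163949-45176142 (plus strand, GRCm38). It stood at 4.06 CPM in WT, at 3.03, 1.96 and 2.37 CPM in Het1, Het2 and Het3, and at 7.01, 4.39 and 3.71 CPM in KO1, KO2 and KO3. The KO libraries were above the Het libraries, but WT was above KO3. Its log2 fold change, 1.04 ± 0.273 (SE), was the largest of the 55 in the fit reported and missed the threshold (edgeR, adjusted p = 0.0570). With a library left out it ranged from 0.73 to 1.22, and that of *Unc13c* from 0.40 to 0.79, so these ranges overlap.

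*Cplx3*, on chr9:57599992-57606281 (minus strand, GRCm38), encodes the complexin of ribbon synapses that is also present in some amacrine cells. It stood at 25.1 CPM in WT, at 24.2, 23.4 and 21.9 CPM in Het1, Het2 and Het3, and at 31.8, 27.2 and 26.9 CPM in KO1, KO2 and KO3. No KO library reached down to the Het range, and the log2 fold change of 0.31 ± 0.0772 (SE) missed the threshold (edgeR, adjusted p = 0.0518). *Cplx4* stood at 1.30, 1.37 and 1.29 CPM in the Het and 1.57, 1.21 and 1.31 CPM in the KO libraries, and *Stx3* at 10.05, 9.70 and 9.89 CPM in the Het and 10.9, 10.03 and 10.9 CPM in the KO libraries. Both overlapped between the groups, with edgeR adjusted p of 0.832 and 0.299. The conventional complexin *Cplx2* was the most abundant of all members at 97.6 RPKM, with 498, 483 and 480 CPM in the Het and 546, 493 and 437 CPM in the KO libraries, a log2 fold change of 0.014, and *Cplx1* had one of 0.11. *Slc17a6*, the VGLUT2 transporter of ganglion cells, led its role at 9.95 RPKM, and its 53.2, 53.9 and 54.0 CPM in the Het libraries overlapped the 55.4, 56.9 and 51.8 CPM of the KO libraries. *Slc17a8*, the VGLUT3 gene, was the least abundant member at 0.187 RPKM, with a log2 fold change of 0.22 (edgeR, adjusted p = 0.689).

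**Figure D2:**
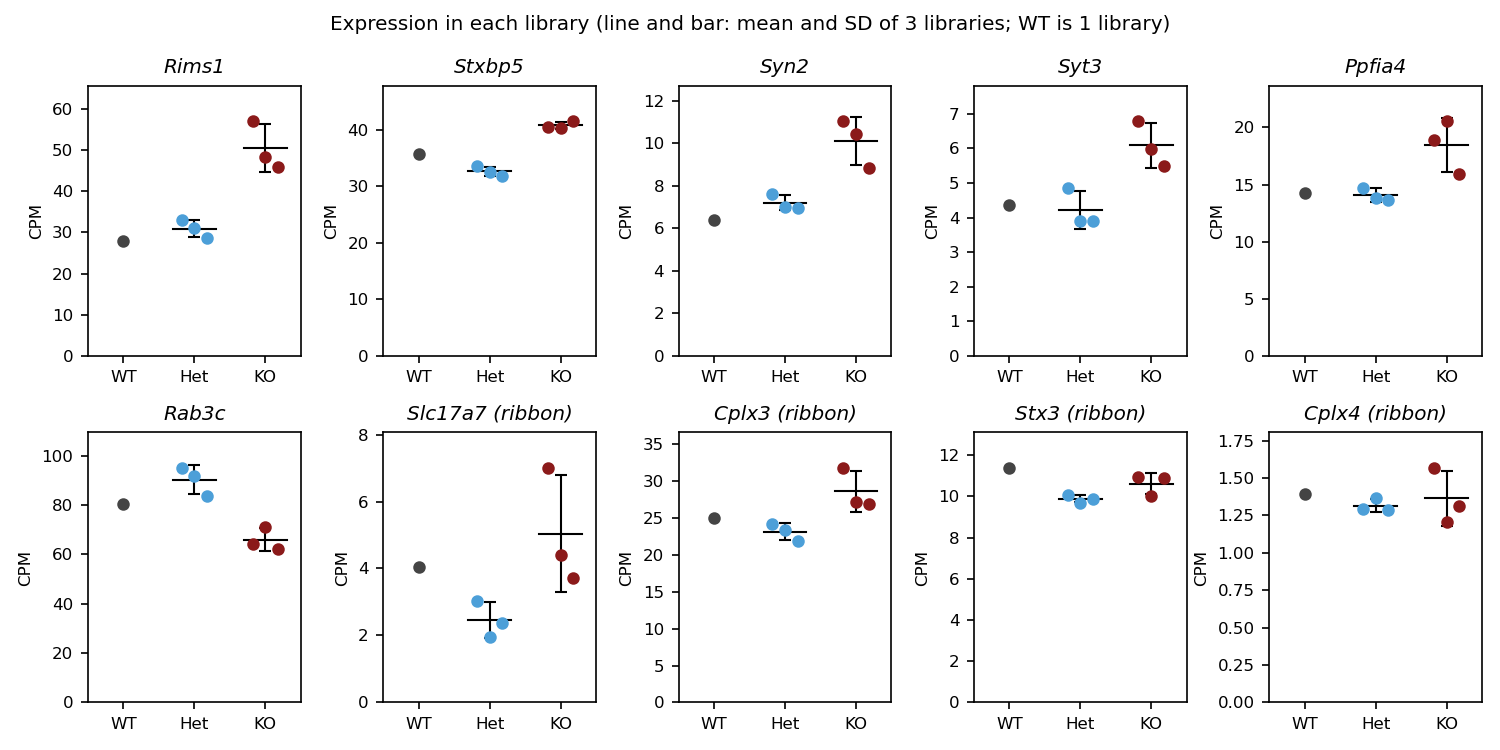
Normalized level in CPM of the 6 called genes and the 4 ribbon members in each of the 7 libraries, 1 panel per gene, with points for libraries, lines for means and bars for the SD of 3 libraries. The KO points lie above the Het points for *Rims1* and *Stxbp5* and below them for *Rab3c*, while those of *Stx3* and *Cplx4* overlap.

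Whether paralogs kept their proportions was examined as each gene's share of the summed RPKM of its paralogs among the 55 genes in a library. Paralogs outside the 55, such as *Rims4* at a mean of 4.05 RPKM and *Rab3d* at 6.28 RPKM, are not in the sums. This measure does not depend on how libraries are scaled to each other, and was added after the values were seen. *Rims1* made up 14.2% of *Rims1*, *Rims2* and *Rims3* in WT, 15.0% ± 0.732 in Het and 23.9% ± 1.76 in KO (SD, n = 3 each), while *Rims3* made up 70.1% ± 0.655 in Het and 62.2% ± 1.68 in KO. *Rab3c* made up 10.5% ± 0.125 of *Rab3a*, *Rab3b* and *Rab3c* in Het and 7.36% ± 0.782 in KO. *Unc13b* made up 39.2% ± 1.17 of *Unc13a*, *Unc13b* and *Unc13c* in Het and 32.2% ± 1.49 in KO, and *Unc13c* 14.8% ± 1.93 and 22.3% ± 3.73.

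The share of *Slc17a7* among the 3 transporters was 4.29% ± 0.935 in Het and 8.23% ± 2.497 in KO, with WT at 7.26%, inside the KO range. Among the SV2 genes all 3 shares overlapped, with that of *Sv2a* at 65.0% ± 1.199 in Het and 65.1% ± 1.44 in KO. Of the 26 shares computed in 8 sets of paralogs, 17 did not overlap between Het and KO, against 36.3% for the levels of all genes tested, but shares within a set sum to a whole and constrain each other, so this count is not read further. Each of the 17 had a two-sided exact permutation p of 0.1, the smallest that 3 against 3 libraries allow, and an adjusted p of 0.153 over the 26 by Benjamini-Hochberg, so the design cannot pass the threshold by this test.

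**Figure D3:**
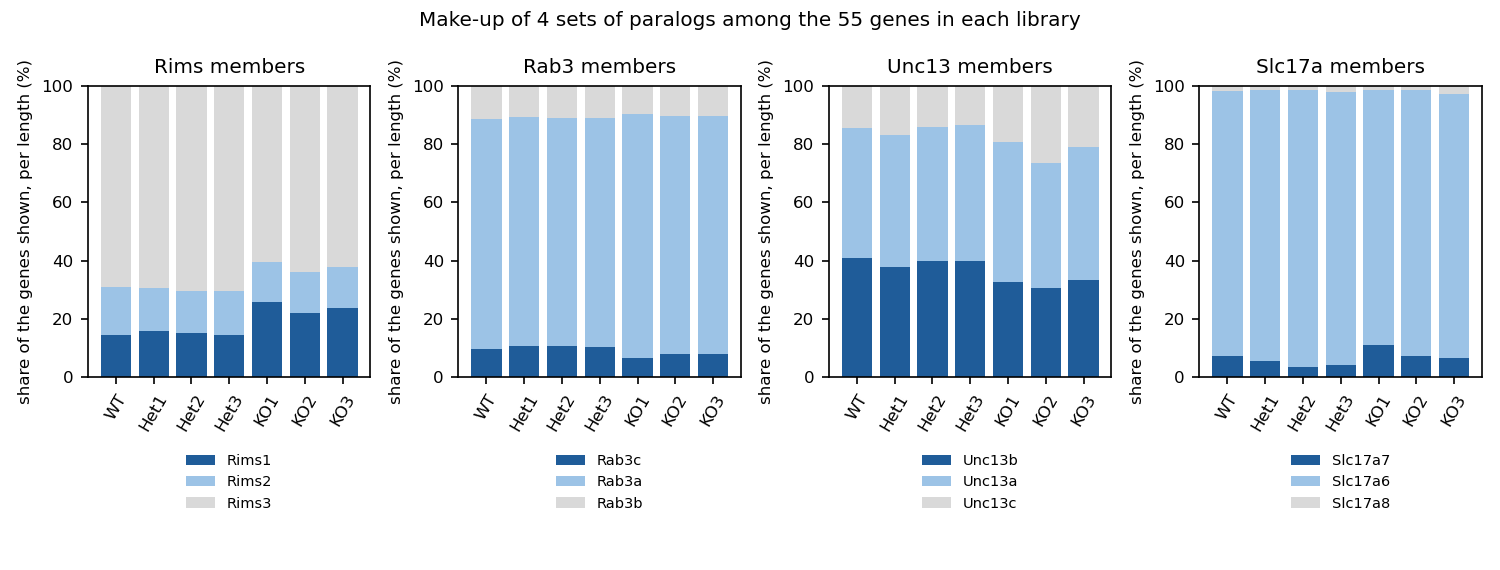
Stacked bars of the share in percent of the summed RPKM of the Rims, Rab3, Unc13 and Slc17a genes among the 55 taken by each gene in each of the 7 libraries. The share of *Rims1* lies at 14.3% to 15.7% in the Het libraries and 22.1% to 25.6% in the KO libraries, and that of *Rab3c* at 10.4% to 10.6% and 6.46% to 7.87%.

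Other genes of the pathway were tested in the same fit. Of 50 further presynaptic genes, 6 rose and 2 fell, or 16% against 7.22% of all genes tested. A log2 fold change above 0 was found in 30, or 60% against 49%, with a median of 0.046 against -0.0047. The genes that rose were *Syt6* (log2 fold change 0.73), *Rimbp2* (0.50), *Syt9* (0.29), *Syt10* (0.96), *Rims4* (0.47) and *Nrxn3* (0.40), and those that fell were *Syt13* (-0.40) and *Vamp3* (-0.33). *Rimbp2* encodes a protein that ties RIM to calcium channels, and *Nrxn3* encodes a presynaptic adhesion protein. Of 10 further ribbon synapse genes, 9 were tested. *Tulp1* rose with a log2 fold change of 0.88, 1 of 9 or 11.1% against 7.22%, and the other 8 were not called.

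Markers of retinal neurons moved in the same libraries. For comparison, 4.01% of all genes tested rose, 3.21% fell, and 29.7% had an unadjusted edgeR p under 0.05. Of 11 photoreceptor markers 8 rose, or 72.7%, and *Crx*, *Otx2* and *Thrb* were not called. The list summed to 988, 914 and 892 CPM in Het1, Het2 and Het3 and to 1308, 1175 and 1139 CPM in KO1, KO2 and KO3, with *Neurod1* its most abundant gene per length. Of 7 amacrine markers 3 rose, namely *Gad1*, *Tfap2b* and *Tfap2a*, and the list summed to 448, 433 and 413 CPM in the Het and 592, 553 and 554 CPM in the KO libraries. Of 10 ganglion cell markers *Isl1* and *Gap43* fell and *Thy1* rose, and the list summed to 2654, 2779 and 2672 CPM in the Het and 2344, 2542 and 2211 CPM in the KO libraries. Of 5 horizontal cell markers *Calb1* rose, of 8 progenitor markers *Fgf15* and *Sfrp2* fell, and none of 7 bipolar markers was called, 2 of them with an unadjusted edgeR p under 0.05. The bipolar list is a weak guide, since *Pcp2*, *Vsx1* and *Grm6* stayed under 1 CPM in every library. *Trpm1* stood at 117 CPM in Het1, where pigment epithelium markers were high, and at 4.44 to 41.9 CPM elsewhere. Among markers of other tissues *Foxe3*, of 5 lens markers, fell, although the sum of the lens markers varied widely within each group. None of the 10 muscle or the 4 pigment epithelium markers tested was called, with 7 and 2 at an unadjusted edgeR p under 0.05. The part of these markers in the values of the release genes was not tested.

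**Figure D4:**
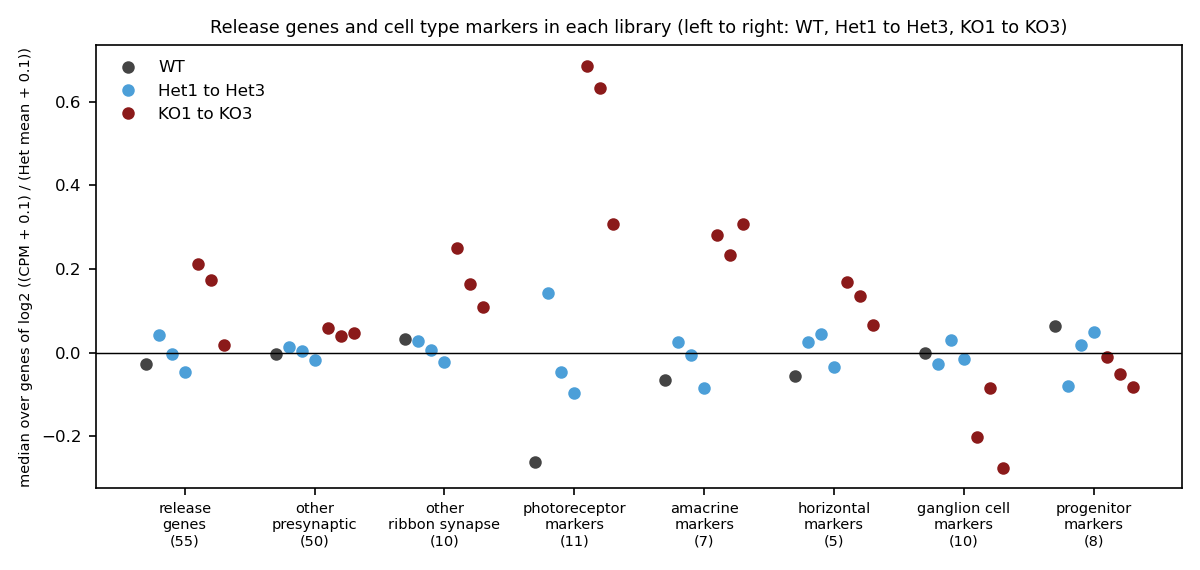
Median over genes of the log2 ratio to the Het mean, with 0.1 CPM added, for the 55 release genes, 2 further lists of synaptic genes and 5 lists of cell type markers in each library. The release genes stand at 0.21, 0.17 and 0.019 in KO1, KO2 and KO3, the photoreceptor markers at 0.69, 0.63 and 0.31, and the ganglion cell markers at -0.20, -0.084 and -0.28.

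The WT library, with its *Ptbp1* above the Het level, gave a second view of the members. It lay within the Het range for 26 members, below it for 20 and above it for 9, and was nearer to the Het mean than to the KO mean for 49 of 55. No such counts over all genes tested stand beside these, so they describe the members alone. With 1 library these counts have no error and no test.

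Release genes are long. The median span of the 55 members was 60.5 kb, against 17.9 kb for the genes tested that the annotation placed, and 21 of all 55 and 4 of the 6 called members exceeded 100 kb. The Spearman correlation of span with log2 fold change was 0.087 across the 55 members and -0.030 across the genes tested that the annotation placed. Across the members, that of mean CPM with log2 fold change was -0.33. These describe genes of the same libraries.

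Promoters were read for the members with an entry in the RefSeq table (GRCm38.p6), 45 of the 55, over the 250 bases before the start. The GC box GGGCGG, on either strand, was in 31 of 45 members (68.9%), in 59.2% of 12968 tested genes and in 35.4% of all 27025 genes. The letters TAATCC, a core bound by OTX2 and CRX, were in 4 of 45 (8.89%), against 6.54% of tested genes and 7.21% of all genes. They were in none of the 6 called or of the 3 ribbon members with an entry. The RE1 core of REST was in 0 of 45, against 0.0617% of tested genes. The windows of the genes that rose most, *Rims1*, and fell most, *Rab3c*, among those called, and of *Slc17a7*, are shown 5′ to 3′ with GC boxes in capitals, at chr1:22806159-22806408 (minus strand), chr13:110280207-110280456 (minus strand) and chr7:45163671-45163920 (plus strand). They hold 2, 1 and 3 boxes. By the GENCODE annotation the *Rab3c* gene begins upstream of its window, which overlaps no annotated exon.
Rims1: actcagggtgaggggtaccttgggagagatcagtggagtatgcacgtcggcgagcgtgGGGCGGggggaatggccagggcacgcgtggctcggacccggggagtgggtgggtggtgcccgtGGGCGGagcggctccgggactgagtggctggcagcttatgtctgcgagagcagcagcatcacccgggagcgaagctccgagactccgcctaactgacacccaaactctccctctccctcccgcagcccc
Rab3c: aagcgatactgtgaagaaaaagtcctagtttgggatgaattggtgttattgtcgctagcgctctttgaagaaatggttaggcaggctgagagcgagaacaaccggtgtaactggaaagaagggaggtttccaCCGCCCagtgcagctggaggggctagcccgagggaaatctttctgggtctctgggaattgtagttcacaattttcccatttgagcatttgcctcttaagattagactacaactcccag
Slc17a7: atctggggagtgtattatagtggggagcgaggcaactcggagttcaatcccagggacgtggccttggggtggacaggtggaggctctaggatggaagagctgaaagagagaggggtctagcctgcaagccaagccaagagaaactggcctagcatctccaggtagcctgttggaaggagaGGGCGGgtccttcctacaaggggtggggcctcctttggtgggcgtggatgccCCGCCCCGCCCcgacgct
A match is a run of letters, and binding there was not measured.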

How the data were processed

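Retinas were collected at E16 and pooled by genotype, and libraries were made with a stranded mRNA kit. The authors aligned reads to GRCm38 by STAR, run through rMATS-turbo, took gene counts on GENCODE models with featureCounts, and deposited raw counts per gene, not normalized. The strand setting and the treatment of reads that map to several genes are not given in the sources used here, so paralogs and overlapping genes may share reads. The number of pools limits precision, and for genes of few counts counting error does too.

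From the deposited counts, all 7 libraries were fitted with edgeR 4.0.16 (R 4.3.3) after filterByExpr and TMM normalization, with a mean per genotype and the contrast KO minus Het. Quasi-likelihood tests were run, and adjusted p-values (Benjamini-Hochberg) cover all 20019 genes. The fit was tested on simulated data. The study's own method, DESeq2 (1.42.0), was an alternative, as were other normalizations, filters, limits and each library left out. RPKM used exon lengths, and positions came, from the GRCm38 annotation supplied, a later GENCODE release than the study's.

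The members and lists were chosen with earlier results of these data known. Values per library are given for called members, ribbon members and the most abundant gene of each role; *Unc13b* and the other members named were chosen after their values were seen. No replicates were copies, and no column was left out. The level of 1 marker gene used to check the tissue is not reported here.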

Additional observations from a re-analysis of the deposited data

How the results depend on the processing

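The numbers of genes called depended on the settings more than the fold changes did. Of the 55 members, 6 were called in the fit reported, against 12 by DESeq2, 10 with at least 10 counts required in every library, and 1, *Rims1*, when the test itself was set against the 20% limit. Leaving out 1 library gave 1 to 13. Of the 51 conventional members, 6 were called, against 10 by DESeq2, 1 with the test against the limit, and 1 to 11 with a library left out. Of the 4 ribbon members none was called, against 2 by DESeq2, 1 with WT left out, 2 with at least 10 counts, 1 by upper-quartile normalization, and 0 to 2 with a library left out. Of the 60 other presynaptic and ribbon synapse genes, 9 were called, against 15 by adjusted p alone, 2 with the test against the limit, and 3 to 14 with a library left out. Over all genes 1445 were called, against 2221 by adjusted p alone, 217 with the test against the limit, and 386 to 1673 with a library left out. Among the fits with a library left out, the count over all members and that over all genes were lowest without Het2 and highest without KO3. The causes of these differences were not tested.

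Between 42 and 47 members had a log2 fold change above 0 under these alternatives. The sign of the fold change turned in 9 members under at least 1 alternative, none of them called in any. With a library left out, log2 fold changes ranged from -0.066 to 0.096 for *Cplx2*, -0.061 to 0.13 for *Cplx4*, -0.037 to 0.044 for *Napa*, -0.089 to 0.019 for *Rab3b*, -0.085 to 0.0020 for *Rims2*, -0.0029 to 0.067 for *Slc17a6*, -0.12 to 0.52 for *Slc17a8*, -0.0063 to 0.14 for *Syt7* and -0.039 to 0.032 for *Unc13a*. By DESeq2 *Napa* was at -0.0013 and *Unc13a* at -0.0014. Of the 15 alternatives, *Stxbp5* and *Rims1* were called in 14, *Rab3c* in 13, *Syn2* in 10, *Syt3* in 9 and *Ppfia4* in 6. Of members not called in the fit reported, *Unc13b* was called in 7 and *Doc2b* and *Cplx3* in 6 each.

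Het and KO libraries share replicate numbers. Deviations of same-numbered libraries correlated at -0.197, 0.159 and -0.0739. No Het library correlated best with its own number, whereas KO2 correlated best with Het2. Correlations this weak over so few libraries cannot decide whether the numbers pair the samples. With the replicate number as a block and WT left out, 10 members were called, 2 of them ribbon members. Of these, 5 were shared with the fit reported, and *Ppfia4* was lost. With WT left out and no block, 9 members were called.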

Other observations

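*Doc2b*, a calcium sensor with a role in spontaneous and asynchronous release, was the member whose WT level was farthest below Het. It stood at 17.2 CPM in WT, at 36.7, 29.8 and 28.6 CPM in Het1, Het2 and Het3, and at 45.6, 40.8 and 39.8 CPM in KO1, KO2 and KO3. WT was thus at 54.3% of the Het mean, and every KO library lay above every Het library, with a log2 fold change of 0.41 that missed the threshold (edgeR, adjusted p = 0.0511). DESeq2 called *Doc2b* (DESeq2, adjusted p = 0.0006). *Slc17a7* in WT was at 166% of the Het mean. Both were chosen after their values were seen, and the single WT library allows no test.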
